A study of Mus musculus with 5 samples.

Results

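The insulin-like growth factor (IGF) axis was followed across the cells of mouse mammary tumors through 9 genes, chosen by symbol from the 31053 genes of the count tables. They are the ligand Igf1, the receptors Igf1r and Igf2r, and the binding proteins Igfbp2, Igfbp3, Igfbp4, Igfbp5, Igfbp6 and Igfbp7. Each symbol matched 1 gene. Tumors came from the MMTV-PyMT model, strain FVB/N-Tg (MMTV-PyVT)634Mul/J, in which a viral promoter active mainly in mammary epithelium drives the polyoma middle T oncogene, so all groups carried the transgene. From 7 weeks of age, mice received intraperitoneally 5 mg/kg of either isotype mouse IgG2a (clone C1.18.4) or B20-4.1.1, an antibody that blocks mouse VEGF-A, with 2 doses per week for 6 weeks. Viable cells, sorted as DAPI-, were labeled with lipid oligonucleotides and pooled, 3 tumors to a pool, before droplet-based single-cell RNA-seq. There were 6 isotype tumors in 2 pools and 9 B20-4.1.1 tumors in 3 pools. Because each pool held 1 treatment, pool and treatment cannot be told apart, and p-values over tumors measure the spread between tumors that share pools.

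IGF1 is a secreted growth factor that acts through the tyrosine kinase IGF1R to drive growth and survival by the PI3K and RAS pathways. IGF2R carries no kinase and takes up IGF2 and proteins tagged with mannose 6-phosphate for delivery to lysosomes. The IGF-binding proteins hold IGFs in tissue fluid, prolonging their life and restricting or presenting them to the receptor, and several also bind matrix or cell surface. In the mammary gland Igfbp5 is known as an epithelial product that rises when the gland regresses after lactation, and stromal cells are the usual local source of Igf1. The binding protein genes lie partly in pairs. In the mm10 build (GRCm38, GENCODE annotation), Igfbp2 (chr1:72824503-72852474, plus strand) and Igfbp5 (chr1:72857932-72874884, minus strand) face each other tail to tail with 5457 bases between them. Igfbp4 lies at chr11:99041244-99054392 on the plus strand, Igfbp7 at chr5:77349240-77408041 on the minus strand and Igf2r at chr17:12682406-12769664 on the minus strand.

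Of 30340 deposited cells, 19533 were kept (10630 isotype and 8903 B20-4.1.1). Cells were placed in the class with the highest share of its 8 marker genes detected. At least 3 had to be detected, and the second highest share had to lie well below the highest. The gate gave 13716 epithelial-like cells, 19 endothelial-like and 61 fibroblast-like stromal cells, and among blood-derived cells 1425 macrophage-like, 51 dendritic-like, 97 neutrophil-like, 2691 T-like and 179 B-like, and left 6.62% without a class. None of the 9 members was a gate marker. Median depth in UMIs (counted RNA molecules) was 8733 for epithelial-like cells, 4076 for T-like cells and 6440 for macrophage-like cells. Levels are given as UMIs of a gene per 10000 UMIs of the cells, and comparisons of the share of cells with a UMI were made after thinning every cell to 2500 UMIs. In 3 of the 9 B20-4.1.1 tumors, the third of pool 1 and the first and the third of pool 2, there were 298, 77 and 163 epithelial-like cells, against 508 to 1973 in the other tumors. Tumors in a pool shared no cell barcode, and between pools at most 24 barcodes recurred.

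Each member had its own distribution over the classes. Igfbp5 was highest in epithelial-like cells, Igfbp7 and Igfbp3 in endothelial-like cells, Igfbp6 and Igf1 in fibroblast-like cells, and Igfbp4 in endothelial-like and fibroblast-like cells. Epithelial-like cells, the largest class, also held most UMIs of Igf2r (87.7%), Igfbp2 (85.5%), Igf1r (73.4%) and Igfbp7 (67.6%). Igf1r was highest in neutrophil-like cells, which also carried Igfbp6. Intervals below are exact 95% Poisson or binomial limits and cover counting error only.

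**Figure D1:**
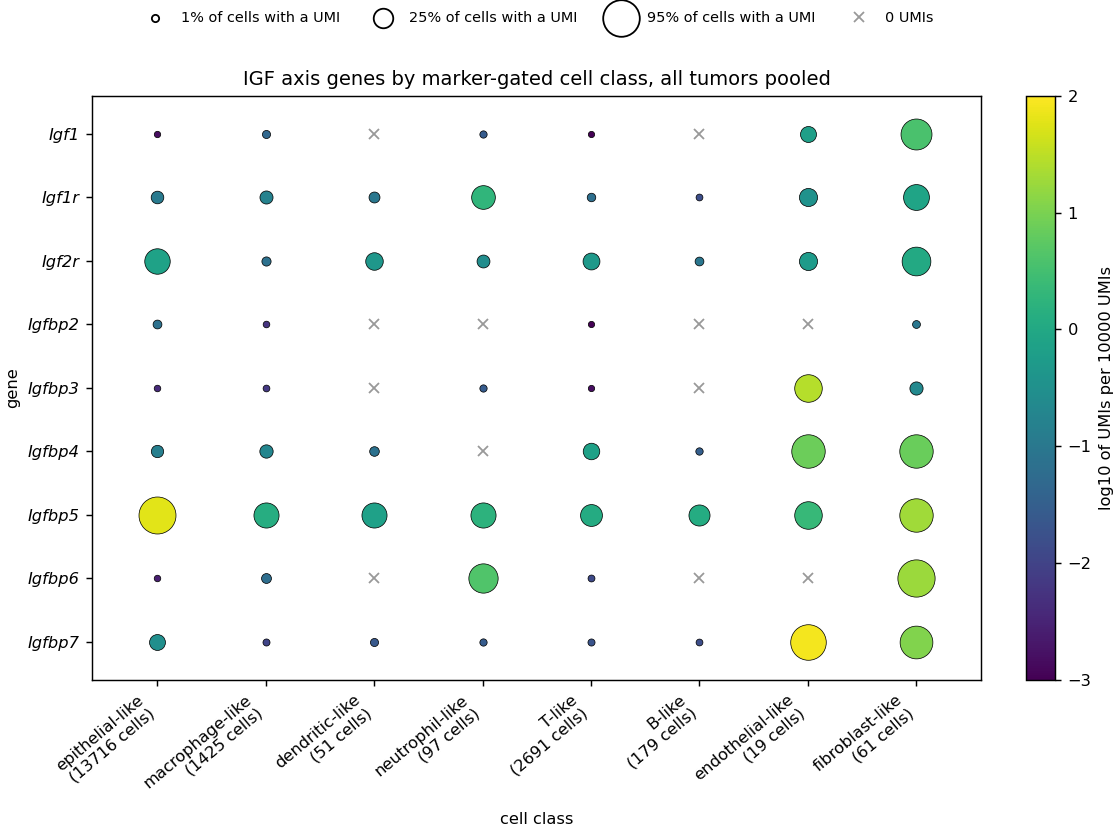
Each row is a gene and each column a marker-gated cell class with its number of cells, all 15 tumors pooled. Color is the log10 of UMIs per 10000, circle area grows with the share of cells with a UMI, and crosses mark 0 UMIs. The brightest circles are Igfbp7 in endothelial-like cells (80.2 UMIs per 10000) and Igfbp5 in epithelial-like cells (58.3).

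Igf1, the ligand, was sparse, and 222 of its UMIs, or 67.9%, came from the 61 fibroblast-like cells. Its level there was 3.63 UMIs per 10000 (3.17 to 4.14), with a UMI in 67.2% of cells, and fibroblast-like cells were above epithelial-like cells in 11 of 11 tumors that held any. The first tumor of B20-4.1.1 pool 1 supplied 24 of these cells, and without it the level was 4.53 (3.89 to 5.24). Macrophage-like cells had 48 Igf1 UMIs in 28 of 1425 cells (0.046 UMIs per 10000), and epithelial-like cells 20 UMIs in 15 of 13716 cells (0.00149). The difference between these classes within tumors was -4.33 ± 1.90 on the log2 scale (SD, n = 14 tumors, exact two-sided sign-flip test, adjusted p = 0.000157 over the 9 members). Adding a fixed level of 0.01 UMIs per 10000 in place of 0.5 UMIs gave -1.70 ± 1.54, lower in 10 of 14 tumors (exact, adjusted p = 0.0033), so the size of this difference depends on how zeros are treated. No UMI of Igf2, the other ligand, or of Igfbp1 was counted in any kept cell.

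Igf1r, the signaling receptor, was low in epithelial-like cells (0.111 UMIs per 10000, 8.72% of cells) and macrophage-like cells (0.161, 9.61%), and the within-tumor difference between them did not pass the test (-0.41 ± 0.80 log2, n = 14, exact adjusted p = 0.0886). Neutrophil-like cells stood above all other classes at 1.91 UMIs per 10000 (1.49 to 2.41), with a UMI in 37 of 97 cells although their median depth was only 3120 UMIs. Of their gate markers, the chemokine receptor Cxcr2 was found in 91.8% of them and in 0.209% of other cells. The marker G0s2 ran the other way, at 41.2% and 47.1%. S100a8 was found in 100% of them but also in 24.1% of other cells. The Igf1r level of neutrophil-like cells exceeded that of epithelial-like cells in 9 of 13 tumors. The first isotype pool held 63 of the 97 neutrophil-like cells, and the other 34 gave 2.46 (1.65 to 3.54). Fibroblast-like cells followed at 0.85 (0.635 to 1.11), below the lower limit of the neutrophil-like level. T-like cells had 0.0631 (0.0501 to 0.0784), below epithelial-like cells by 1.15 ± 1.30 log2 within tumors (n = 15, exact adjusted p = 0.00337). That call was lost with thinned cells (0.495, exact adjusted p = 0.161) and with 2 UMIs added (0.39, exact adjusted p = 0.107).

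Igf2r, the uptake receptor, was highest in fibroblast-like (1.03, 0.791 to 1.32) and epithelial-like cells (0.772, 0.757 to 0.787), intervals that only just failed to overlap. T-like cells carried less, at 0.489 UMIs per 10000 with a UMI in 17.9% of cells, and macrophage-like cells little, at 0.0691 and 3.3%. Within tumors the epithelial-like level was above the macrophage-like level in 14 of 14 tumors, by 3.46 ± 1.44 log2 (exact adjusted p = 0.000157). Against T-like cells the difference was 0.30 ± 0.45 log2 and the epithelial-like level was higher in 10 of 15 tumors (exact adjusted p = 0.0241). That call was lost without isotype pool 1 (0.30, exact adjusted p = 0.0698), without B20-4.1.1 pool 2 (0.19, exact adjusted p = 0.18) and with 2 UMIs added (0.235, exact adjusted p = 0.107).

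Igfbp5 made up 784840 UMIs in epithelial-like cells, 95.4% of all its UMIs in kept cells, and 97.1% of epithelial-like cells had at least 1. The thinned epithelial-like cell held a median of 12 Igfbp5 UMIs, with 1 at the tenth and 39 at the ninetieth percentile. Fibroblast-like cells came next with 19.5 UMIs per 10000 (18.4 to 20.6). The blood-derived classes fell in a narrow band from 0.703 in dendritic-like to 1.66 in neutrophil-like cells, with 1.12 in T-like, 1.19 in B-like and 1.3 in macrophage-like cells. T cells are not known as a source of this gene, yet 32% of T-like cells had a UMI. After thinning to equal depth, 20.8% of T-like and 21.3% of macrophage-like cells had one. The level was set beside 6 other epithelial genes that were not in the gate. In isotype tumors the T-like level of Igfbp5 was a median 2.42% of the epithelial-like level, and it was 2.39% for Csn3, 2.34% for Wfdc18, 2.59% for Krt19, 1.6% for Wap, 1.09% for Wfdc2 and 10.8% for Spp1. In B20-4.1.1 tumors it was 1.44% for Igfbp5, below 2.14% for Csn3, 2.54% for Wfdc18, 2.26% for Krt19 and 2.08% for Wap, while it was 0 for Wfdc2 and 4.36% for Spp1. The part of free epithelial RNA in the Igfbp5 of blood-derived classes was not tested.

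Igfbp4, which binds IGFs and is cut by the protease PAPP-A, reached 7.67 UMIs per 10000 (6.13 to 9.49) in endothelial-like and 7.08 (6.43 to 7.78) in fibroblast-like cells, intervals that overlap. Among abundant classes it was highest in T-like cells, at 0.716 with 17.1% of cells positive, against 0.193 in macrophage-like and 0.135 in epithelial-like cells. Over tumors neither difference passed the test (epithelial-like minus macrophage-like -0.36 ± 1.32 log2, n = 14, exact adjusted p = 0.338, and minus T-like -0.27 ± 2.05, n = 15, exact adjusted p = 0.617), and most T-like UMIs came from a few tumors described below.

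Igfbp6, which prefers IGF2, was found in 60 of 61 fibroblast-like cells at 18.1 UMIs per 10000 (17 to 19.2), above epithelial-like cells in 11 of 11 tumors. The second source was neutrophil-like cells, at 4.28 (3.64 to 5.01) with a UMI in 59.8% of cells, above epithelial-like cells in 10 of 13 tumors, and at 5.44 (4.19 to 6.95) without the first isotype pool. T-like cells gave 0.0132, and epithelial-like cells 35 UMIs in 13716 cells. Igfbp6 was higher in macrophage-like than epithelial-like cells (-4.29 ± 1.91 log2 for epithelial-like minus macrophage-like, exact adjusted p = 0.000157, and -2.02 ± 1.32 with the fixed level), at a level of only 0.0623. The level itself was higher in 12 of 14 tumors, in 1 tumor neither class had a UMI, and in 1 only epithelial-like cells did.

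Igfbp7, an extracellular matrix protein with low IGF affinity that is known from blood vessels, reached 80.2 UMIs per 10000 (75 to 85.6) in the 19 endothelial-like cells and was above the epithelial-like level in 10 of 10 tumors. Fibroblast-like cells had 11.1 (10.3 to 12). Epithelial-like cells had 0.299, more than T-like (0.0202) and macrophage-like cells (0.0105) in every tumor compared, by 3.55 ± 1.14 log2 (n = 15, exact adjusted p = 0.000183) and 4.36 ± 1.33 log2 (n = 14, exact adjusted p = 0.000157). Igfbp3, the main IGF carrier of plasma, had 308 of its UMIs in endothelial-like cells, but 240 of these lay in a single cell. The endothelial-like level was 27.8 with that cell and 6.83 (5.3 to 8.66) without it, and elsewhere the highest was 0.229 in fibroblast-like cells. A UMI of Igfbp3 was found in 10 of 19 endothelial-like cells, and their level was above the epithelial-like level in 5 of 10 tumors. For Igf1 and Igfbp3 against T-like cells, and Igfbp3 against macrophage-like cells, the sign of the paired difference was set by the 0.5 UMIs added to unequal totals, and no direction is given.

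Igfbp2, which occurs in many glands and tumors, was sparse and epithelial. It had 929 UMIs in epithelial-like cells, 72.4% of them in the top 1% of cells, 6 or fewer in every other class, and 145 in cells without a class. The epithelial-like level exceeded the macrophage-like level in 14 of 14 tumors (2.35 ± 1.54 log2, exact adjusted p = 0.000157) and the T-like level in 15 of 15 (2.45 ± 1.31 log2, exact adjusted p = 0.000275). With cells thinned to 2500 UMIs the first difference was 0.71 and no longer called (exact adjusted p = 0.13). With 2 UMIs added, neither was called, at 0.62 (exact adjusted p = 0.13) and 0.625 (exact adjusted p = 0.107). T-like cells held 1 Igfbp2 UMI and macrophage-like cells 6. The 6 UMIs of fibroblast-like cells, all in 1 cell, came to 0.0981 UMIs per 10000 (0.036 to 0.213), an interval that holds the epithelial-like level of 0.069.

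The treatment comparison asked whether blocking VEGF-A went with other levels of these genes inside a class. Summed counts per tumor were fitted with edgeR for the whole table. In epithelial-like cells 6 of the 9 members passed the filter on low counts (Igf1, Igfbp3 and Igfbp6 did not), and 4 of them changed, where 14.4% of all 12328 genes tested did (917 higher and 863 lower, or 707 and 1236 with library sizes alone). Igfbp4 and Igfbp7 were higher with B20-4.1.1 (7.44% of all genes were called higher), and Igfbp5 and Igf2r were lower (7% were called lower). The median log2 fold change was 0.3 over the 6 tested members and -0.0052 over all genes. All 4 calls were lost when the pool was fitted as a random block or when counts were summed per pool, and all 4 were lost without the first isotype pool. That pool had 84.3 to 92.1% of oligonucleotide UMIs from the own tumor, against 87.8 to 97.6% elsewhere. Its tumors kept 1461 of 3273, 2029 of 4215 and 1636 of 3538 deposited cells. Those of isotype pool 2 kept 1885 of 2386, 1278 of 1703 and 2341 of 2993, and the B20-4.1.1 tumors together 8903 of 12232. The part of isotype pool 1 in the results was not tested beyond leaving it out.

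The start regions of the 4 members called in epithelial-like cells are shown because they moved in both directions. They run from 250 bases before to 50 after the RefSeq start in GRCm38.p6, 5′ to 3′, at chr11:99040994-99041293 (plus strand) for Igfbp4, chr5:77407996-77408295 (minus) for Igfbp7, chr1:72874816-72875115 (minus) for Igfbp5 and chr17:12769657-12769956 (minus) for Igf2r. Capitals mark ACGTG and GCGTG, the cores of hypoxia-response elements, and TATAAA, each on either strand.
Igfbp4: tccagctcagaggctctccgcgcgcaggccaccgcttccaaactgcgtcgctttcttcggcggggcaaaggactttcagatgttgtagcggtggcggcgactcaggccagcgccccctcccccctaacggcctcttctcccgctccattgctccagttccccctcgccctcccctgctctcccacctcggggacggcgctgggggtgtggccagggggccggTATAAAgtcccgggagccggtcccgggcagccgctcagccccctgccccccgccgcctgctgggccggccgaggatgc
Igfbp7: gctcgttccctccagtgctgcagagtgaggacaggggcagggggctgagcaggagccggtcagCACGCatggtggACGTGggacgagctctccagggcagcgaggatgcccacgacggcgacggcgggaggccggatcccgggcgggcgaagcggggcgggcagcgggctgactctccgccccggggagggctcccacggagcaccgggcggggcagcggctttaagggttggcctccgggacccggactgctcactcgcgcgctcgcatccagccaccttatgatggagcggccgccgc
Igfbp5: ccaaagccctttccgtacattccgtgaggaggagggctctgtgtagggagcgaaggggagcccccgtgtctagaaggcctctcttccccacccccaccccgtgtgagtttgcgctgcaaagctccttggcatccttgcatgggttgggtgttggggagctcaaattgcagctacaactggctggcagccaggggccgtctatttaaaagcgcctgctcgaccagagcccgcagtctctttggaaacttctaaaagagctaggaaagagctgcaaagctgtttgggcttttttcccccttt
Igf2r: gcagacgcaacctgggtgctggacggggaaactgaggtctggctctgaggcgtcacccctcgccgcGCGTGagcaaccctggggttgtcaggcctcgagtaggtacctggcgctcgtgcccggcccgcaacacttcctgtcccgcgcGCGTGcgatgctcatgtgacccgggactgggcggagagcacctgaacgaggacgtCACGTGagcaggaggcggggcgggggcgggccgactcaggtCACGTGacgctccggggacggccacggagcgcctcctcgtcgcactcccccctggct
The Igf2r window held 4 matches to ACGTG, as 2 palindromic CACGTG boxes that read as ACGTG on both strands, and 2 to GCGTG. The Igfbp7 window held 1 of each, and those of Igfbp4 and Igfbp5 held neither. Of 32851 promoter windows of this length, 19.6% held ACGTG, 32.4% GCGTG and 13.6% TATAAA, which Igfbp4 had once. GC content was 71.3% in Igfbp4, 73.3% in Igfbp7, 70.7% in Igf2r and 56.3% in Igfbp5, against a median of 52.7%. All 9 members matched an entry in the promoter table.

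Igfbp4 in epithelial-like cells lay between 0.0885 and 0.119 UMIs per 10000 in the 6 isotype tumors (median 0.105) and between 0.0949 and 0.222 in the 9 B20-4.1.1 tumors (median 0.162). Of the 9 B20-4.1.1 tumors, 8 were above every isotype tumor, and the other, the third of pool 1, rested on 32 UMIs. The log2 fold change was 0.77 ± 0.17 (SE, edgeR adjusted p = 0.00778), and it was called in 12 of 15 alternatives with values from 0.60 to 0.94. It was 0.82 with the random block (adjusted p = 0.131), 0.79 with sums per pool (adjusted p = 0.39) and 0.64 once isotype pool 1 was left out (adjusted p = 0.109). The thinned share of positive cells was 2.13% ± 0.48 (SD, n = 6) and 3.18% ± 1.55 (n = 9, exact permutation test, adjusted p = 0.307). The 8 T cell markers of the gate ran higher in epithelial-like cells of B20-4.1.1 tumors, untested, where they summed to 0.126 to 0.457 UMIs per 10000 against 0.0811 to 0.17 in isotype tumors. They were detected in 3.54% of epithelial-like cells with an Igfbp4 UMI and in 4.33% of those without.

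Igfbp7 ranged from 0.208 to 0.312 in isotype tumors (median 0.258) and from 0.186 to 0.518 in B20-4.1.1 tumors (median 0.381). Of the 9, 7 were above every isotype tumor, while the first tumor of pool 3 was below all of them. The log2 fold change was 0.58 ± 0.17 (edgeR adjusted p = 0.0328) and was called in 9 of 15 alternatives. It was 0.52 (adjusted p = 0.223) without isotype pool 1, 0.53 (adjusted p = 0.103) without B20-4.1.1 pool 1 and 0.50 (adjusted p = 0.0979) without the 3 tumors poor in epithelial-like cells, an alternative added after the data were seen. Thinned shares were 5.65% ± 0.75 and 8.1% ± 1.88 (exact permutation test, p = 0.013, adjusted p = 0.0557). The 8 endothelial markers of the gate summed to 0.0264 to 0.0694 UMIs per 10000 in epithelial-like cells of isotype tumors and to 0.0223 to 0.0695 in those of B20-4.1.1 tumors. They were detected in 1% of epithelial-like cells with an Igfbp7 UMI and in 0.952% of those without. The 8 fibroblast markers ranged from 0.0275 to 0.0632 and from 0.0299 to 0.173. They were seen in 1.67% of epithelial-like cells with an Igfbp7 UMI against 1.3% of those without. With and without an Igfbp4 UMI the shares were 1.91% and 1.31%. Markers of mural cells, which wrap vessels, were seen in 9.23% of epithelial-like cells with an Igfbp7 UMI against 7.64% without. Macrophage markers gave 8.79% against 7.14%, and neutrophil markers 43.5% against 49.7%. A gate for mural cells was run and held 0 cells.

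Igfbp5 levels differed between the isotype pools. In isotype pool 1 the epithelial-like levels were 93.8, 88.5 and 88.3 UMIs per 10000, and in isotype pool 2 they were 49.4, 54.1 and 53.5. The B20-4.1.1 tumors read 48.5, 58.3 and 42.8 in pool 1, then 40.8, 47 and 55.3 in pool 2, and 25.1, 47 and 51 in pool 3. Isotype pool 2 lay within the range of the B20-4.1.1 tumors, and only isotype pool 1 stood apart. The overall log2 fold change was -0.53 ± 0.15 (edgeR adjusted p = 0.0292), and it was -0.21 (adjusted p = 0.511) without isotype pool 1. The call was also lost, at -0.46 to -0.58, without any 1 of the B20-4.1.1 pools (adjusted p = 0.0537, 0.072 and 0.0671). Nearly all epithelial-like cells kept the transcript, with thinned shares of 95% ± 2.03 and 89% ± 5.11 (exact permutation test, p = 0.0186, adjusted p = 0.0557).

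Igf2r followed the same layout. Its levels were 1.06 in all 3 tumors of isotype pool 1, 0.647 to 0.769 in isotype pool 2 and 0.588 to 0.741 in the B20-4.1.1 tumors (median 0.698). Isotype pool 2 and the B20-4.1.1 tumors overlapped. The log2 fold change was -0.28 ± 0.087 (edgeR adjusted p = 0.0398) and was -0.07 (adjusted p = 0.672) without isotype pool 1. It was called in 7 of 15 alternatives, and was lost without any 1 of the B20-4.1.1 pools as well (adjusted p from 0.0573 to 0.115).

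**Figure D2:**
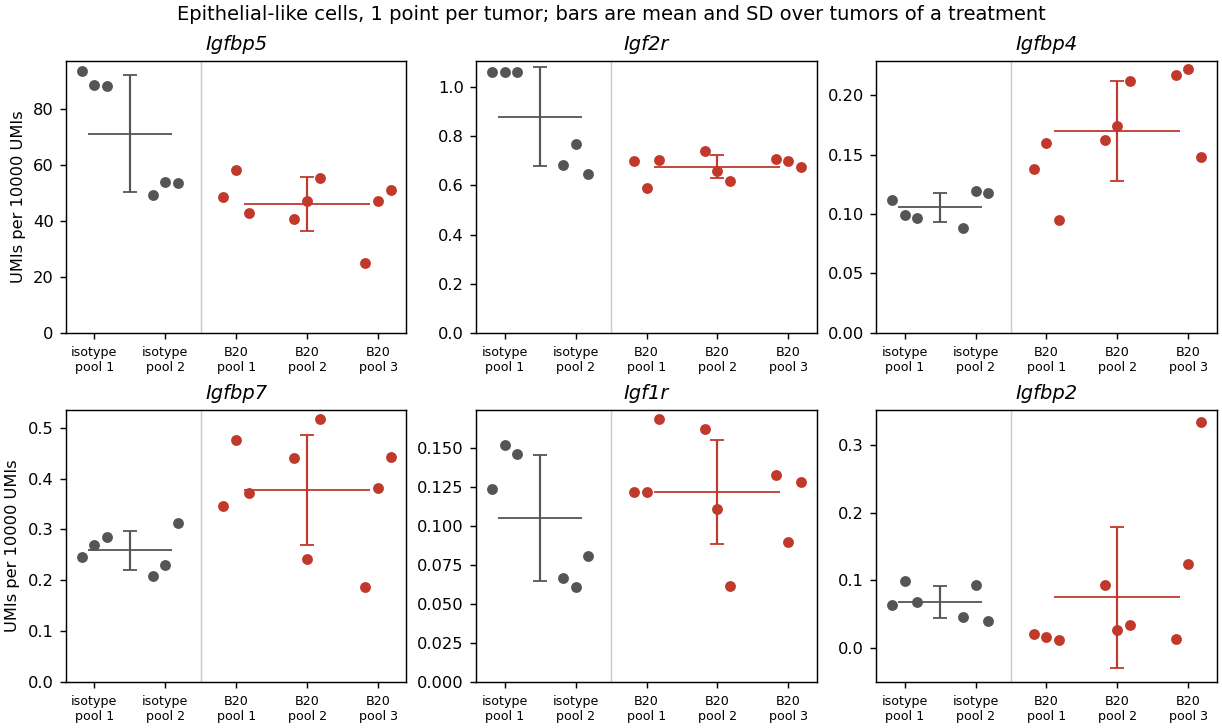
Levels of 6 members in epithelial-like cells, in UMIs per 10000, with 1 point per tumor arranged by pool and bars for the mean and SD of each treatment (6 isotype and 9 B20-4.1.1 tumors). In Igfbp5 and Igf2r the 3 tumors of isotype pool 1 lie above the other 12, whereas in Igfbp4 both isotype pools lie below 8 of the 9 B20-4.1.1 tumors.

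Igf1r and Igfbp2 did not pass the test in epithelial-like cells. Igf1r read 0.105 ± 0.0406 (SD, n = 6) and 0.122 ± 0.0333 (n = 9), with a log2 fold change of 0.33 ± 0.19 (edgeR adjusted p = 0.252). Its isotype pools differed, at 0.124 to 0.152 and 0.0612 to 0.0809, so the value was 0.78 (adjusted p = 0.045) without pool 1 and -0.01 (adjusted p = 0.97) without pool 2. Igfbp2 read 0.0682 ± 0.024 and 0.0746 ± 0.105 (0.26 ± 0.61 log2, adjusted p = 0.8). Of the 9 B20-4.1.1 tumors, 6 were below every isotype tumor, but 2 tumors of pool 3 were above all of them, at 0.124 and 0.333, and without pool 3 the log2 fold change was -1.40 (edgeR adjusted p = 0.0262). The thinned share of Igfbp3-positive cells was the only one of 9 epithelial-like shares past the test (0.112% ± 0.10 and 0, exact permutation test, adjusted p = 0.018), on 9 positive cells in all, and it was lost without isotype pool 1 or without B20-4.1.1 pool 1 or 3. With all UMIs, Igfbp3 had 35 UMIs in isotype and 19 in B20-4.1.1 epithelial-like cells.

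In macrophage-like cells 3 members were tested, in 6 isotype and 8 B20-4.1.1 tumors, and Igfbp5 was the 1 gene called among 6682 (0.015%, with 695 genes at an unadjusted p under 0.05 and 33 called by DESeq2). The levels were 1.78, 1.99 and 2.52 UMIs per 10000 in isotype pool 1 and 2.03, 0.874 and 1.11 in isotype pool 2, and they ran from 0.35 to 0.736 with B20-4.1.1. The groups did not overlap, and the share of all genes tested whose groups also did not overlap is not given here. The log2 fold change was -1.63 ± 0.22 (edgeR adjusted p = 0.00153), called in 9 of 15 alternatives, and it was -1.29 (adjusted p = 0.618) without isotype pool 1, -1.54 (adjusted p = 0.0594) without B20-4.1.1 pool 2 and -1.48 (adjusted p = 0.0658) without B20-4.1.1 pool 3. A random block for the pool also ended the call (-1.59, edgeR adjusted p = 0.0775), as did sums per pool (-1.59, adjusted p = 0.359) and the gate on the highest marker share alone (-1.70, adjusted p = 0.231). The thinned share of cells with a UMI was 25.3% ± 6.87 and 11.3% ± 6.13 (exact permutation test, adjusted p = 0.021). That call was kept only when B20-4.1.1 pool 1 was the pool left out. T-like cells, which gave 1.76 ± 0.602 and 0.814 ± 0.329, were lower on average without passing the test (-0.89 ± 0.25 log2, edgeR adjusted p = 0.175), and 8 of 9 B20-4.1.1 tumors were below every isotype tumor. Without the 3 tumors poor in epithelial-like cells the T-like value was -1.19 (edgeR adjusted p = 0.0299).

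The gap between epithelial-like and macrophage-like cells was itself wider with B20-4.1.1. It was 5.41 log2 in isotype and 6.45 in B20-4.1.1 tumors, a difference of 1.04 (exact permutation over 3003 splits, p = 0.000999, adjusted p = 0.00899), and no other member passed the test (adjusted p from 0.673 to 0.989). The difference was no longer called without isotype pool 1, isotype pool 2 or B20-4.1.1 pool 2, nor by the highest-share gate (1.34, exact adjusted p = 0.521). As a share of the epithelial-like level, macrophage-like Igfbp5 was a median 2.16% (1.62 to 4.1%) in isotype and 1.16% (0.687 to 1.65%) in B20-4.1.1 tumors. For comparison, Csn3 gave 2.35% and 1.83%, Wfdc18 2.23% and 1.79% and Krt19 2.26% and 2.36%, Wap 2.12% and 2.77%, Wfdc2 0 and 0, and Spp1, which macrophages also make, 9.03% and 8.71%. The part of free epithelial RNA in the macrophage-like difference was not tested.

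**Figure D3:**
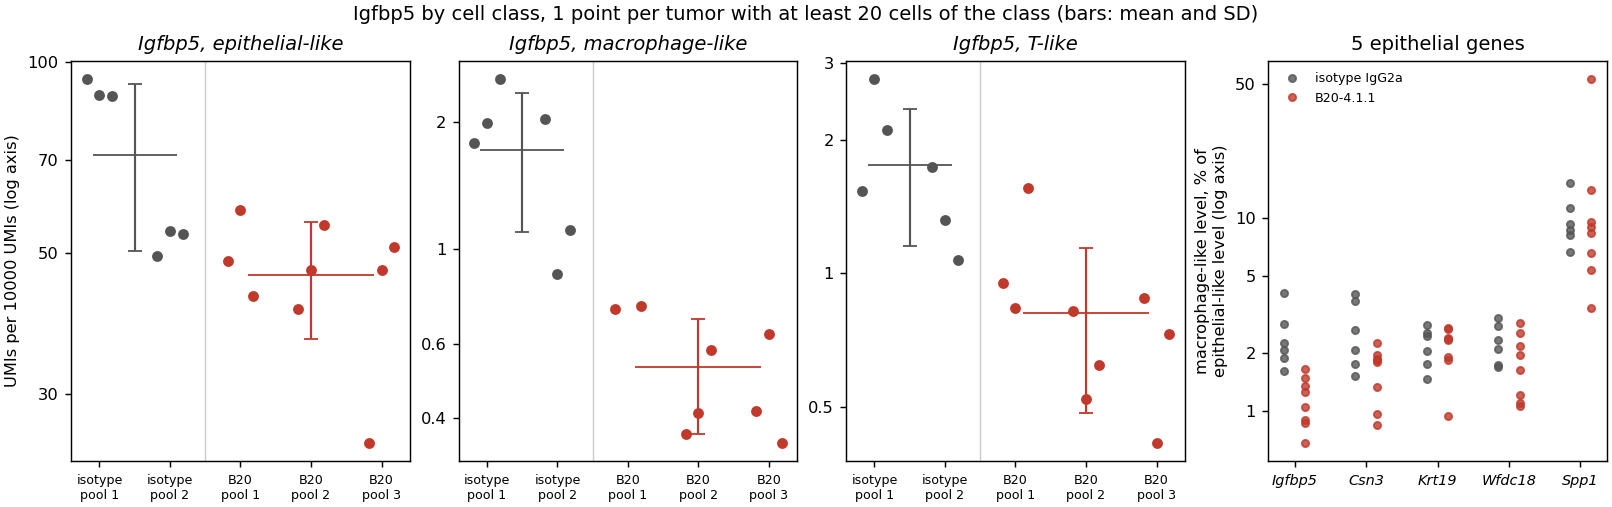
The first 3 panels show Igfbp5 in UMIs per 10000 on log axes in epithelial-like, macrophage-like and T-like cells, 1 point per tumor with at least 20 cells, with mean and SD per treatment. The last panel shows the macrophage-like level of 5 epithelial genes as a percentage of the epithelial-like level of the same tumor, where Igfbp5 (medians 2.16% and 1.16%) lies beside Csn3, Krt19 and Wfdc18 in isotype tumors, below their medians of 1.83%, 2.36% and 1.79% in B20-4.1.1 tumors, and below Spp1 in both.

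In T-like cells none of 6023 genes was called by edgeR (0%, with 955 at an unadjusted p under 0.05 and 52 called by DESeq2), and 3 members were tested. Igf2r read 0.747 ± 0.166 and 0.55 ± 0.178 (-0.40 ± 0.19 log2, adjusted p = 0.324). Igfbp4 was the most uneven. It read 0.0248 to 0.441 in isotype tumors (median 0.133) and 0 to 1.38 with B20-4.1.1 (median 0.242), with a log2 fold change of 2.42 ± 0.84 (edgeR adjusted p = 0.205). The 3 high tumors, at 1.12, 1.29 and 1.38, were those with the fewest epithelial-like cells, and they held 1587 of the 2691 T-like cells. They also held 88, 30 and 53 of the 179 B-like cells, and their median depth was 4043, 4270 and 4370 UMIs per kept cell against 6880.5 to 10591 in the other tumors. The part of these in the Igfbp4 difference was not tested. The other 6 B20-4.1.1 tumors lay between 0 and 0.25. The value was 2.77 (edgeR adjusted p = 0.0431) without B20-4.1.1 pool 3, and without the 3 high tumors the gene no longer passed the filter.

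**Figure D4:**
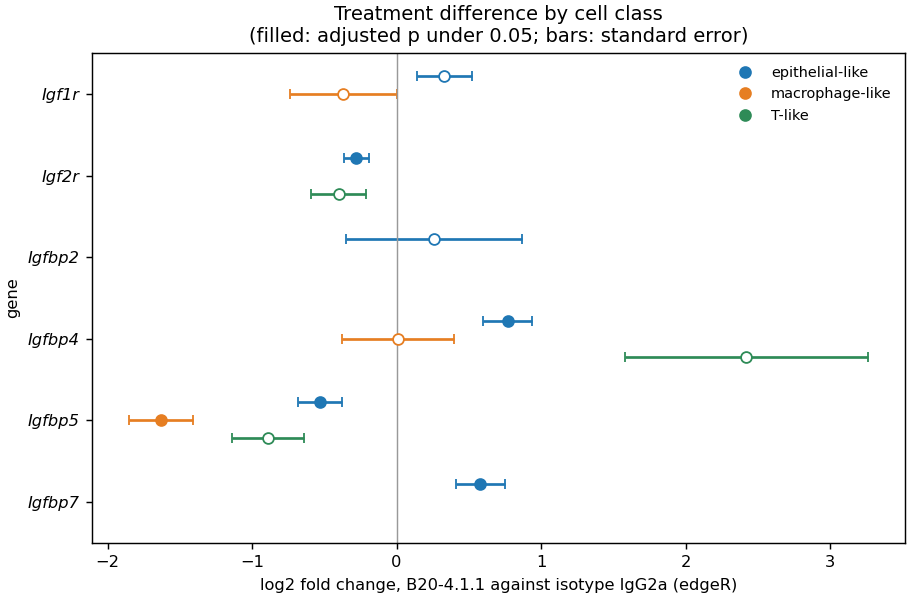
Log2 fold change of each tested member, B20-4.1.1 against isotype IgG2a, with its standard error, by cell class. Filled points are called by edgeR, which are Igfbp4 and Igfbp7 above 0 and Igfbp5 and Igf2r below 0 in epithelial-like cells, and Igfbp5 in macrophage-like cells at -1.63.

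Treatment levels in the small classes are given without a test, over few cells. Endothelial-like Igfbp7 was 63.2 UMIs per 10000 (57.1 to 69.8) in 10 isotype cells and 101 (92.6 to 111) in 9 B20-4.1.1 cells, and Igfbp4 was 5.54 (3.83 to 7.74) and 10.3 (7.69 to 13.6). Endothelial-like Igfbp3 was 43.6 and 8.1, but the cell with 240 UMIs was among the 10 isotype cells. In fibroblast-like cells Igfbp6 was 9.47 (7.66 to 11.6) in 10 isotype and 19.8 (18.6 to 21) in 51 B20-4.1.1 cells, 24 of them from 1 tumor, and Igf1 was 6.68 (5.18 to 8.48) and 3.03 (2.57 to 3.55). Neutrophil-like Igfbp6 was 3.35 (2.71 to 4.09) in 73 and 7.63 (5.83 to 9.8) in 24 cells, and Igf1r was 1.6 (1.17 to 2.14) and 3 (1.92 to 4.46). Isotype pool 1 held 63 of the 73 cells, and the tumors of B20-4.1.1 pool 1 held 11, 7 and 2 of the 24. These neutrophil-like values thus mostly set 1 pool beside 1 other.

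Within epithelial-like cells, those with at least 2 of the 3 hypoxia genes Vegfa, Slc2a1 and Car9 were compared with those with none, in 6 tumors with 20 or more cells on each side. Such cells were 1.18% of isotype and 2.65% of B20-4.1.1 epithelial-like cells. Of the 3 genes, 2 were called higher with B20-4.1.1, among them Vegfa (0.79 ± 0.12 log2, edgeR adjusted p = 0.000892). The median log2 fold change over the 3 was 0.41. With counts summed per pool, 0 genes were called in epithelial-like cells. Igfbp5 was lower in the hypoxia-gene cells in 6 of 6 tumors, at 49.5 against 59.3 UMIs per 10000 (-0.25 ± 0.16 log2). Igf2r was higher in 6 of 6, at 1.06 against 0.764 (0.56 ± 0.25 log2), on 42 UMIs in the hypoxia-gene cells. Both genes had an exact sign-flip p of 0.0312, the smallest that 6 tumors allow. The adjusted p of 0.0469 for both leaned on Igf1, Igfbp3 and Igfbp6, which tied at that p with 0 UMIs in the hypoxia-gene cells, and it was 0.141 with a fixed level of 0.1 UMIs per 10000 added in place of UMIs. With all UMIs of a cell the Igf2r difference was 0.11 (exact adjusted p = 0.44). No member was called in this split with either other gate. Igfbp2 had 12 UMIs in the hypoxia-gene cells and its direction held in 6 of 6 tumors with the added UMIs but in 2 of 6 with the fixed level. Igf1r, Igfbp4 and Igfbp7 had 10, 5 and 19 UMIs there and did not pass. A like split by 6 basal epithelial genes left no tumor with 20 cells on each side after thinning, with 85 cells in all having at least 2. With all UMIs, 8 tumors could be used. Igfbp5 was lower in basal-gene cells in 8 of 8, at 35.6 against 57.6 UMIs per 10000 (-0.71 ± 0.24 log2, exact sign-flip p = 0.00781, adjusted p = 0.0176). That p is the smallest that 8 tumors allow. Igfbp7 was 0.438 against 0.273 and higher in 7 of 8 (exact sign-flip p = 0.0156, adjusted p = 0.0281). Both adjusted values leaned on Igf1, Igfbp3 and Igfbp6, which tied at the smallest p with 0, 3 and 0 UMIs in the basal-gene cells. No fixed-level alternative is given for this split.

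The surrounding pathway was represented by 37 further genes. In epithelial-like cells 31 passed the filter, 3 were higher, 1 was lower and 27 did not pass the test, 4 of 31 against the 14.4% of all genes, and their median log2 fold change was -0.026. Those higher were Stc2, an inhibitor of the IGFBP-cutting protease PAPP-A (1.45 ± 0.44, adjusted p = 0.035), Eif4ebp1, a repressor of translation that mTOR inactivates (0.62 ± 0.19, adjusted p = 0.0369), and Grb2, an adaptor to RAS (0.39 ± 0.089, adjusted p = 0.00944). Socs2, a feedback inhibitor of growth hormone and prolactin signaling through STAT5, was lower (-1.03 ± 0.15, adjusted p = 0.000836). With counts summed per pool 0 genes were called in epithelial-like cells, so these 4 calls were lost too. With the pool as a random block 40 of all genes were called. The remaining receptors and adaptors, among them Insr at -0.09 ± 0.14 and Irs1 at -0.41 ± 0.15, and 12 of 13 PI3K and mTOR genes did not pass. Pappa, the protease itself, had 113 UMIs in all kept cells. No gene of these lists was called by edgeR in macrophage-like or T-like cells, with 15 tested in each.

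Genes whose epithelial-like levels ran most like those of the 4 called members over the 15 tumors were sought among genes with an average log2 CPM of at least 4. These are descriptions over tumors that share pools, with no test. For Igfbp5 they were Boc (Pearson r = 0.941, Spearman rho = 0.861), Parm1 (0.938 and 0.807) and Vipr1 (0.932 and 0.693). Without the 2 tumors farthest from the Igfbp5 median, r was 0.85 or more. Leaving out 2 tumors cannot remove isotype pool 1, which held 3 tumors and stood apart in Igfbp5, so the part of that pool in r was not tested. For Igf2r the genes were Dicer1 (0.948 and 0.836), Setd7 and Iqgap1. For Igfbp7 they were C3, a complement component (0.956 and 0.886), Asrgl1 (0.924 and 0.882) and Spp1, the secreted protein osteopontin (0.881 and 0.871). For Igfbp4 they were Arl2 (0.897 and 0.929), Tmem205 and Tubb2a.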

How the data were processed

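Single-cell RNA-seq counts of 5 pools (15 tumors) were analysed as the raw UMI counts that the authors deposited, 1 matrix per tumor after demultiplexing. The submitters' processing notes name Cell Ranger, bcl2fastq and Seurat 4.3.0, the file header gives Cell Ranger 6.1.2, and the build is mm10. The 12 multiplexing features were kept out of the totals.

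Cells needed at least 2500 UMIs, at most 20% mitochondrial UMIs and a total under the study's upper UMI limit against multiplets. No doublet caller was run. A class needed at least 3 of its 8 markers detected, the highest share of markers, and a second highest share well below it. A tumor needed at least 20 cells of a class. Summed counts per tumor were tested with edgeR 4.0.16 (quasi-likelihood, TMM, Benjamini-Hochberg over all genes, threshold 0.05) in R 4.3.3, checked on simulated data. Alternatives used DESeq2 1.42.0, limma 3.58.1 (pool as a random block), library sizes alone, no filter, sums per pool, other gates and depths, and leaving out each pool. Class and split differences used exact two-sided sign-flip tests on log2 levels with 0.5 UMIs added, and shares exact two-sided permutation tests, each adjusted over the 9 members. Because 0.5 UMIs weigh more in the shallower side, a fixed level was added instead in an alternative chosen after the data were seen. A direction is given only where both had the same sign, except in the basal split, which has no such alternative. Python 3.11.15 was used. Intervals are exact at 95%, and a count of 0 is given a floor of 3 counts. They cover counting error only.

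Named genes were the 9 members, the called genes of the pathway lists and, for each called member in epithelial-like cells, the 3 genes with the highest Pearson r among genes of average log2 CPM of at least 4. Members and lists were chosen with earlier results of these data known. Motifs were searched on both strands of the RefSeq promoter windows.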

Additional observations from a re-analysis of the deposited data

Results flagged for a closer look

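In 24 groups of tumors examined for a single value far from the others, 4 such values were found, where chance gives about 5% of groups. Igfbp2 in epithelial-like cells was 0.333 UMIs per 10000 in the third tumor of B20-4.1.1 pool 3, against 0.124 in the next. Igfbp4 in macrophage-like cells was 0.63 in the first tumor of B20-4.1.1 pool 2, on 12 UMIs, against 0.266. Igfbp4 in T-like cells was 0.441 in the first tumor of isotype pool 1, on 10 UMIs, against 0.149. Igfbp5 in T-like cells was 1.56 in the third tumor of B20-4.1.1 pool 1, against 0.95.

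The treatment difference of Igfbp5 was not the same in epithelial-like and macrophage-like cells by a test of the difference itself. The gap between the classes was 1.04 log2 wider with B20-4.1.1 (exact permutation, adjusted p = 0.00899). It was no longer called without isotype pool 1, isotype pool 2 or B20-4.1.1 pool 2, nor by the highest-share gate.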

How the results depend on the processing

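No paired analysis was possible because each pool held 1 treatment, so that pool numbers do not pair tumors across treatments. Tumors of a pool resembled each other (within-pool correlation 0.536 in epithelial-like cells). The 1780 genes called in epithelial-like cells became 40 with pool as a random block, 0 with sums per pool, 1004 with thinned cells and 414 to 5481 when 1 pool was left out. The 1 gene in macrophage-like cells became 33 with DESeq2, 40 without a filter, 0 with pool as a random block, 0 with sums per pool, 3 with cells of at least 1000 UMIs, 4 with thinned cells, 2 with either other gate and 0 to 456 without 1 pool. The 0 genes in T-like cells became 52 with DESeq2, 4 without the 3 tumors poor in epithelial-like cells (added after the data were seen) and 0 to 322 without 1 pool.

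Signs turned for members that were not called. Igf1r in epithelial-like cells ran from -0.0108 to 0.779 without 1 pool. Igfbp2 was -0.974 with the random block and -1.4 to 0.795 without 1 pool. Igfbp4 in macrophage-like cells was -0.0528 with library sizes alone, -0.162 and -0.0316 with the other gates, -0.146 without the 3 tumors and -0.525 to 0.519 without 1 pool. With a fixed level added, Igfbp3 was 0.0147 against macrophage-like cells, Igf1 0.134 and Igfbp3 0.131 against T-like cells, and in the hypoxia split Igf1 was -0.0502, Igfbp3 -0.0279 and Igfbp6 -0.0277. There the added UMIs set the first sign. The cause of the other changes was not tested.

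Members called between epithelial-like and T-like cells fell from 8 to 5 with 2 UMIs added. The 6 in the hypoxia split became 0 with either other gate, 3 with all UMIs, 0 with a fixed level and 0 to 6 without 1 pool. The basal split gave 5 with all UMIs. Of these, Igf1 (3.07 log2) and Igfbp6 (2.75 log2) had 0 UMIs in the basal-gene cells, so the added UMIs set their sign. Igfbp3 (3.17 log2) had 3 UMIs there. The 1 epithelial-like share became 3 by the highest-share gate, 4 with all UMIs and 0 to 3 without 1 pool. The 1 macrophage-like share, and the 1 class difference in treatment effect, ran from 0 to 1 without 1 pool, and the latter was 0 by the highest-share gate. Library sizes alone moved the median of all genes to -0.092 in epithelial-like and -0.14 in T-like cells. Igf1, Igfbp3 and Igfbp6 gave only 20, 54 and 35 UMIs in all in epithelial-like cells and were not fitted there. Of the values of single members in the treatment fits, 124 kept direction and side of the threshold, 30 no longer passed, 3 newly passed in the same direction and 10 changed sign, of which Igfbp2 without B20-4.1.1 pool 3 also passed.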
